A study of Mus musculus with 3 samples.

Results

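The renin and angiotensin system genes are those of the hormone cascade that ends in angiotensin II: the substrate Agt, the proteases Ren1, Ace and Enpep, and the receptors Agtr1a, Agtr1b and Agtr2. They were chosen by name, as oligos with exactly 1 gene symbol in the platform annotation, and oligos of a symbol were averaged. Of the 7 genes listed, 6 were measured, by 7 oligos, among 19635 genes and unnamed oligos (called features here) tested in all. Ace had 2 oligos and each of the other measured genes had 1. Ren1, which encodes renin, had no such oligo and is not analysed here.

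The study set RNA of 13.5 dpc (days post coitum) kidney in channel 1 directly against RNA of 10.5 dpc metanephric mesenchyme in channel 2, on each of 3 2-colour oligonucleotide arrays, and used no common reference. Both tissues were dissected from normal embryos of the CD1 mouse strain, sexes pooled, and their RNA was amplified and then labelled. Each array gave 1 deposited log2 ratio per oligo, and the 3 arrays formed 1 group. Which tissue forms the numerator, and on which array the dyes were swapped, is not stated in the labels. A gene is therefore said to lie on the positive or negative side of the deposited ratio, and neither side is read as higher in the kidney.

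Across library oligos the ratios of arrays 1 and 2 correlated at 0.460, those of arrays 1 and 3 at 0.163 and those of arrays 2 and 3 at 0.151 (Pearson, across oligos, which are not independent). Their medians were 0.0014, 0.030 and 0.0014 (log2) for arrays 1, 2 and 3. A value is a difference between tissues and not a level, so the levels of different genes, and the presence of a cell type's markers in either tissue, could not be read from it. With bulk tissue, fewer cells of a type and less RNA per cell cannot be told apart. No label states that different arrays used different pools of tissue, and the p-values then cover array-to-array spread alone, which may be technical.

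In the classical pathway renin cuts angiotensinogen to angiotensin I, and angiotensin-converting enzyme trims that to angiotensin II. Angiotensin II acts on type 1 receptors, which raise vascular tone and aldosterone output, and on type 2 receptors, which are known for high expression in fetal mesenchyme. All parts of the system are made within the developing kidney, and mice that lack its genes have defects of the renal papilla, the renal vessels or the urinary tract.

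The sequences just before the genes are shown for the pair that lay farthest from 0, Agtr2 and Enpep, and for a receptor and the substrate that lay close to it, Agtr1b and Agt. Each window runs from 250 bases before to 50 bases after the gene start, from RefSeq on GRCm38.p6, 5′ to 3′ on the gene's strand. Such a window was found for 6 of the 7 genes; Agtr1a is the other. Capitals mark TATAAA or TATATA on either strand, letters chosen with the windows in view; matches can overlap.
Agtr2 (chrX:21484374-21484673, plus strand): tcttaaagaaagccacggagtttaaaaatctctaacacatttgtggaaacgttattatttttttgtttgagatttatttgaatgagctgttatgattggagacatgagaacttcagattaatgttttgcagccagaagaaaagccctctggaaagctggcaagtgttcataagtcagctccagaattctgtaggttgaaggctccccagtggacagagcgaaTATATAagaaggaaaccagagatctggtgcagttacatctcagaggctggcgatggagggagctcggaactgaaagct
Enpep (chr3:129332700-129332999, minus strand): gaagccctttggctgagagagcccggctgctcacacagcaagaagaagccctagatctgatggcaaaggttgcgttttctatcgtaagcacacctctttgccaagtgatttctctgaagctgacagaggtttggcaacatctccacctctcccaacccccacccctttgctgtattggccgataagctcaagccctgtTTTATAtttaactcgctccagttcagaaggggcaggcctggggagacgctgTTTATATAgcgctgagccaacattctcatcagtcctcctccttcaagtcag
Agtr1b (chr3:20367128-20367427, minus strand): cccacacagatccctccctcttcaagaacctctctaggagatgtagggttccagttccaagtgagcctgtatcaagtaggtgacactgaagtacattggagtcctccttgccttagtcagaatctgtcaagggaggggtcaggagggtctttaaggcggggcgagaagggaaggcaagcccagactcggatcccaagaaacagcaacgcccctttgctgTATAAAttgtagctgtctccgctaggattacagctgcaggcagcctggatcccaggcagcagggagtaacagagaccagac
Agt (chr8:124569657-124569956, minus strand): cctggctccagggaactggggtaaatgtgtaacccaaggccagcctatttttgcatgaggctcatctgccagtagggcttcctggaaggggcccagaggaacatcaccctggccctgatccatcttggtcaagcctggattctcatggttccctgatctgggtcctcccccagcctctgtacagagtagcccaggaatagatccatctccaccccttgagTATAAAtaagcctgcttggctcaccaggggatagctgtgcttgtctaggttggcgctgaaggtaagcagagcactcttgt

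Agtr1b and Agt hold TATAAA on the gene's strand, beginning 31 and 30 bases before the gene start. Agtr2 holds TATATA 28 bases before its start and no TATAAA. In Enpep the matches lie elsewhere: TATAAA on the opposite strand 52 bases and 1 base before the start, the second of which overlaps TATATA. Of the windows not shown, that of Ren1 holds TATAAA on the gene's strand 29 bases before the start. The first Ace window holds it on the opposite strand, 31 bases before the start, and the second Ace window has no match. Of all 32851 RefSeq windows, 13.6% hold TATAAA, 5.67% hold TATATA and 17.1% hold either. The Agtr2 window has a GC content of 41.3% and that of Enpep 51.3%, beside 53.7% for Agtr1b, 54.7% for Agt and a median of 52.7% over all windows. The Ace windows have 69.7% and 59.0%, and that of Ren1 has 51.3%. The matches are a description of these letters, and the arrays did not measure binding or start sites.

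The 6 measured genes fell into a pair well on the positive side, Enpep and Agtr2, and 4 genes within 0.3 of 0 on the log2 scale. The mean log2 ratio was 1.57 ± 0.35 for Enpep and 1.56 ± 0.31 for Agtr2 (SD, n = 3 arrays), differences of 2.98-fold and 2.94-fold in size. Agtr1b, Ace, Agt and Agtr1a had means of 0.25, 0.22, -0.011 and -0.18. None of the 6 passed the test over all features (limma, Benjamini-Hochberg adjusted p from 0.107 to 0.979), in which 1 feature, or 0.00509%, passed. Enpep and Agtr2 were the 2 of 6 with a limma p under 0.05 before adjustment, beside 16.8% of all features. Both were on the positive side, where 8.99% of all features met that threshold. A mean of at least 1 in size was held by the same pair, beside 5.33% of all features. The median of the 6 genes was 0.23, and that of all features was 0.0020.

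**Figure D1:**
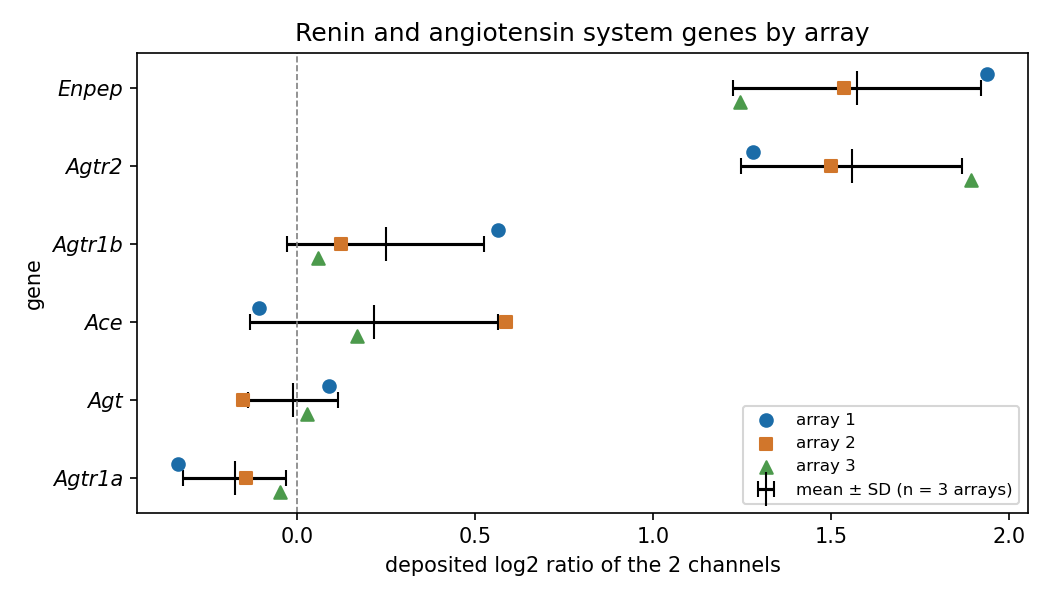
Deposited log2 ratio (horizontal axis) of each measured renin and angiotensin system gene (rows) on arrays 1, 2 and 3 (symbols), with the mean as a tick and the SD over the 3 arrays as a bar. Every value of Enpep and Agtr2 lies above 1.2, and every value of the other 4 genes lies below 0.6.

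Agt, which encodes angiotensinogen, the only known substrate of renin and mainly a liver product, had log2 ratios of 0.091, -0.15 and 0.027 on arrays 1, 2 and 3. The arrays lay on both sides of 0 and close to it. The mean was -0.011 ± 0.13 (SD, n = 3), with a limma 95% interval of -0.41 to 0.39, and limma gave an unadjusted p of 0.943. That interval leaves differences of up to 1.33-fold either way. Without array 2 the mean was 0.059, on the other side of 0. Of 8 liver and yolk sac markers, 7 had a negative mean, while 50.3% of all features had a positive one. The marker median was -0.98, with a range from -2.24 for Ttr, which encodes transthyretin, to 0.87 for Alb, which encodes albumin. The part of such tissue in the Agt ratio was not tested.

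Ace, which encodes the angiotensin-converting enzyme of endothelium and epithelial brush borders, had log2 ratios of -0.11, 0.59 and 0.17 on arrays 1, 2 and 3 as the mean of its 2 oligos. The mean was 0.22 ± 0.35 (SD, n = 3), with a limma 95% interval of -0.31 to 0.74 and an unadjusted p of 0.329. Array 1 alone was negative, and array 2 was the highest. One Ace oligo had 0.31, 0.54 and 0.19 on the 3 arrays, with a mean of 0.35 ± 0.18, and was positive throughout. The other had -0.53, 0.63 and 0.15, with a mean of 0.085 ± 0.59. The oligos lay within 0.1 of each other on arrays 2 and 3 and 0.85 apart on array 1, so the negative value of Ace on array 1 came from 1 of its oligos. Without array 2 the mean of Ace was 0.031. Ace has a second RefSeq promoter window, inside the gene, and which transcripts the oligos detect was not examined.

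Endothelial markers did not lie together on a side: 3 of 8 had a positive mean, beside 50.3% of all features. Their median was -0.018, with a range from -0.86 for Cd34 to 0.64 for Ramp2. The part of endothelium in the Ace ratio was not tested.

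Enpep encodes aminopeptidase A, a membrane enzyme of podocytes and proximal tubule brush border that removes the first residue of angiotensin II to give angiotensin III. Its log2 ratios were 1.94, 1.54 and 1.24 on arrays 1, 2 and 3. All arrays were far on the positive side, with array 1 the highest. The mean of 1.57 had a limma 95% interval of 1.05 to 2.10, or 2.07-fold to 4.29-fold, with an unadjusted p of 0.000872 and an adjusted p of 0.109. It ranked 99th of 19635 features from the positive end, and 1.21% of features had a mean at least as large in size. With 1 array left out the mean ran from 1.39 to 1.74.

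Genes listed as proximal tubule markers had a positive mean for 5 of 6, beside 50.3% of all features, with a median of 0.32. They ranged from -1.49 for Cubn, the endocytic receptor cubilin, to 3.31 for Cdh16, the kidney-specific cadherin. Between them lay Lrp2, Slc34a1, Hnf4a and Aqp1, at 0.37, 0.36, 0.29 and 0.17. How far each listed gene is limited to the proximal tubule was not examined. At an unadjusted p under 0.05 limma gave Cdh16 alone on the positive side and Cubn alone on the negative side. Those sides held 8.99% and 7.83% of all features at that threshold. Of 4 podocyte markers 3 were positive, beside the same 50.3%. Their median was 0.094, with a range from -0.19 for Podxl to 1.84 for Wt1, which nephron progenitors express as well. Only Cdh16 and Wt1 of these 10 genes had a mean above that of Enpep. The part of either cell type in the Enpep ratio was not tested.

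Agtr2, the type 2 receptor, had log2 ratios of 1.28, 1.50 and 1.89 on arrays 1, 2 and 3. All were far on the positive side, here with array 3 the highest and array 1 the lowest, the reverse of Enpep. The limma 95% interval of its mean was 1.06 to 2.06, or 2.08-fold to 4.16-fold, with an unadjusted p of 0.000731 and an adjusted p of 0.107. It ranked 104th of 19635 from the positive end, and the mean with 1 array left out ran from 1.39 to 1.70. Renal stroma markers lay mostly on the same side, with 7 of 8 positive, beside 50.3% of all features. Their median was 0.77, with a range from -0.17 for Pdgfra to 2.15 for Dcn. The part of stromal cells in the Agtr2 ratio was not tested.

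Agtr1a, the main type 1 receptor of the mouse kidney and vessels, had log2 ratios of -0.33, -0.14 and -0.048. It was the only one of the 6 genes on the negative side on all arrays, with array 1 farthest from 0. The mean was -0.18 ± 0.15 (SD, n = 3), with a limma 95% interval of -0.59 to 0.23 and an unadjusted p of 0.310, and without array 1 it was -0.096. Agtr1b, the type 1 receptor best known from the adrenal and pituitary glands, had 0.56, 0.12 and 0.058. It was positive on every array, again with array 1 farthest from 0. Its mean was 0.25 ± 0.28, with a limma 95% interval of -0.23 to 0.73 and an unadjusted p of 0.229, and without array 1 it was 0.090.

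Agtr1a and Agtr1b are closely related paralogues, and how far the oligo of one binds RNA of the other was not examined. The log2 ratio of Agtr1b exceeded that of Agtr1a by 0.90, 0.27 and 0.11 on the 3 arrays, a mean difference of 0.42 ± 0.42. Adrenal and gonad markers were divided, 4 of 8 positive, beside 50.3% of all features. Their median was 0.087, with a range from -1.34 for Ddx4 to 0.91 for Hsd3b1. At an unadjusted p under 0.05 limma gave 3 on the positive side, Hsd3b1, Nr5a1 and Cyp11a1, at 0.91, 0.79 and 0.64. On the negative side it gave 2, Ddx4 and Star, at -1.34 and -0.61. Those sides held 8.99% and 7.83% of all features at that threshold. Smooth muscle and pericyte markers, whose cells carry type 1 receptors, were positive for 1 of 7 genes, beside the same 50.3%. Their median was -0.36, with a range from -1.90 for Tagln to 0.12 for Acta2. The part of these cells in the receptor ratios was not tested.

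The receptors thus had unlike ratios on the same arrays. Agtr2 exceeded Agtr1a by 1.62, 1.64 and 1.94 in log2 ratio on arrays 1, 2 and 3, a mean difference of 1.73 ± 0.18. Agtr2 exceeded Agtr1b by 0.72, 1.38 and 1.83, a mean of 1.31 ± 0.56. These differences were larger than their SD over arrays and of 1 sign on all 3. They are given as a description and were not tested.

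Ordered by mean log2 ratio the genes ran Enpep, Agtr2, Agtr1b, Ace, Agt and Agtr1a. Enpep and Agtr2 differed by 0.015 ± 0.65, within their spread. The step from Agtr2 to Agtr1b was the only one between neighbours larger than its SD. Agtr1b and Ace differed by 0.033 ± 0.58, Ace and Agt by 0.23 ± 0.47, and Agt and Agtr1a by 0.16 ± 0.23. The same sign on all 3 arrays was held by 4 of the 6 genes, beside 41.3% of all features. Enpep, Agtr2 and Agtr1b were positive on all arrays, as were 21.5% of features, and Agtr1a was negative on all, as were 19.9%. The SDs of the 6 genes, from 0.13 to 0.35, lay around or below the median SD of all features, 0.32.

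**Figure D2:**
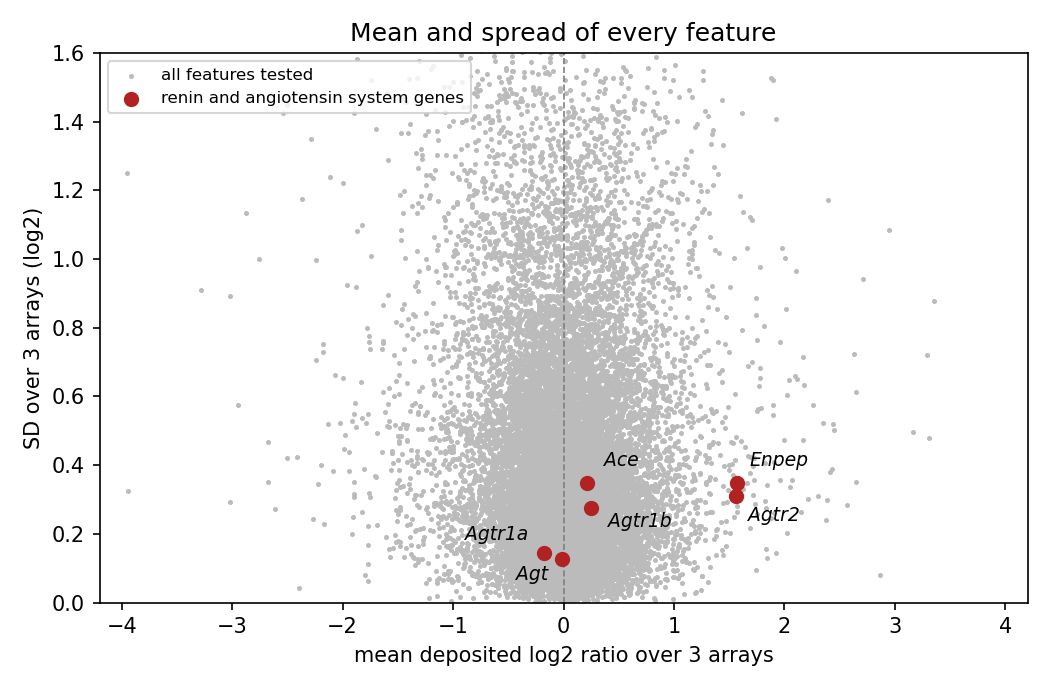
Mean deposited log2 ratio (horizontal axis) against its SD over the 3 arrays (vertical axis, log2) for all features tested (grey) and the 6 measured renin and angiotensin system genes (red). Enpep and Agtr2 lie toward the positive end with an SD near the median of 0.32. The other 4 lie among the bulk near 0, and 467 features fall outside the axes.

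The genes whose 3 array values lay nearest to those of each gene were found by Euclidean distance on the log2 scale, over 3 arrays of 1 group. Nearest to Enpep were Etv4, a transcription factor of ureteric bud tips, at a distance of 0.096, Sparc, a matrix glycoprotein, at 0.13 and Tcf21, a transcription factor of renal stroma and podocytes, at 0.15. Agtr2 had no gene as close, with Pcp4 at 0.16, Ak5 at 0.21 and Golt1a at 0.22. For the 4 genes near 0, where many features lie, the nearest were Trpc7, Rinl and Gdap1 for Agtr1a, Fis1, Chkb and Pcbd2 for Agtr1b, Etl4, Usp4 and Tdrp for Agt, and Ctrb1, 4931400O07Rik and Asb11 for Ace, at distances from 0.014 to 0.091. With 3 arrays these distances describe the values only.

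Other genes that process angiotensin peptides or bind their products went both ways. Of 19 listed genes 15 were measured; limma gave 1 positive and 4 negative genes at an unadjusted p under 0.05, beside 8.99% and 7.83% of all features, and 0 passed when adjusted. The list median of the gene means was 0.039, and it was -0.070 without array 1 and -0.20 without array 2. On each array taken alone the median of the list was negative, at -0.17, -0.18 and -0.10 on arrays 1, 2 and 3. Mme, which encodes neprilysin, a peptidase that makes and degrades angiotensin fragments, had 1.62, 0.86 and 1.23 on arrays 1, 2 and 3 (mean 1.24 ± 0.38, limma unadjusted p = 0.00276). On the negative side the mean was -0.94 ± 0.16 for Dpp3, a cytosolic peptidase that degrades angiotensin II, -0.73 ± 0.12 for Ctsg and -0.68 ± 0.24 for Cma1, granule proteases that can form angiotensin II, and -0.56 ± 0.29 for Prep, a prolyl peptidase. Atp6ap2, the prorenin receptor, had 0.27, -0.22 and 0.080, and Mas1, a receptor for the fragment angiotensin 1-7, had 0.20, -0.032 and 0.63. Neither held 1 sign on all arrays. Agtrap, which binds the type 1 receptor, was negative on all 3, with -0.56, -0.38 and -0.16.

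A list of brush border peptidases, mostly membrane enzymes as Enpep is, was measured for 6 of 8 genes and had a median of 0.72, which was 0.33 without array 3 and 0.23 with each oligo on its own. Limma gave 2 on the positive side at an unadjusted p under 0.05, Mme and Dpp4, beside 8.99% of all features. On the negative side, where 7.83% of features met it, the list had Lap3, a cytosolic aminopeptidase, at -0.55 ± 0.17. Dpp4, which encodes dipeptidyl peptidase, had 2.35, 2.01 and 3.78 on arrays 1, 2 and 3, all above the values of Enpep. Anpep, which encodes aminopeptidase N, the enzyme that acts on angiotensin III, had 0.45, 0.15 and 4.13, so that array 3 carried its mean of 1.57 ± 2.21 (limma unadjusted p = 0.139). The close means of Anpep and Enpep thus came from unlike arrays. Kallikrein and kinin genes, the neighbouring system whose peptides Ace degrades, gave 0 of 5 measured genes at an unadjusted p under 0.05 by limma, with a median of -0.16, or 0.11 without array 3. The bradykinin receptors Bdkrb1 and Bdkrb2 stood at -0.42 ± 0.53 and -0.34 ± 0.21.

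Genes of aldosterone production and action, downstream of the type 1 receptor, had 5 of 13 measured members on the positive side at an unadjusted p under 0.05 in limma and 1 on the negative side, beside 8.99% and 7.83% of all features. The median was 0.18, with 0.044 without array 3 and 0.28 without array 2. The positive ones were Scnn1g and Scnn1b, subunits of the epithelial sodium channel, at 1.17 ± 0.29 and 1.01 ± 0.25, the kinase gene Wnk4 at 1.10 ± 0.18, and the steroidogenic enzymes Hsd3b1 and Cyp11a1 at 0.91 ± 0.32 and 0.64 ± 0.13. Star, the cholesterol carrier of steroidogenic cells, stood at -0.61 ± 0.40. The third channel subunit, Scnn1a, had 0.17, 0.37 and -0.36 and did not share a sign across arrays.

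Regulators of renin cells were measured for 17 of 21 genes and had a median of -0.090, which was positive without array 1 (0.12) and with each oligo on its own (0.031). At an unadjusted p under 0.05 limma gave 5 on the positive side, beside 8.99% of all features, and 2 on the negative side, beside 7.83%. Positive were Ebf1 at 0.85 ± 0.14 and Foxd1 at 0.72 ± 0.28, transcription factors of stroma, and the cyclic AMP pathway genes Adcy6 at 0.84 ± 0.22, Prkaca at 0.83 ± 0.30 and Creb1 at 0.66 ± 0.068. The 2 on the negative side were Npr1, a natriuretic peptide receptor, at -1.09 ± 0.32 and Gja4, a gap junction protein of endothelium, at -0.72 ± 0.24. Rbpj, the Notch effector required for renin cells in mice, had -0.58, -0.14 and -0.83 (limma unadjusted p = 0.0528). Since renin itself had no oligo, these genes could not be set beside it.

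Signalling partners of the receptors gave 1 positive and 2 negative genes of 13 measured at an unadjusted p under 0.05 in limma, beside 8.99% and 7.83% of all features. Their median was -0.061, or -0.13 without array 3. Jak2 had 0.80, 0.53 and 2.62 (mean 1.32 ± 1.13) and Arrb1, a beta-arrestin, had -0.53, -0.54 and -1.78 (mean -0.95 ± 0.72), with array 3 the farthest from 0 in both. Gnai2, a G protein subunit that couples to the type 2 receptor, stood at -0.42 ± 0.11. Ureteric bud branching genes, a process that angiotensin II is known to promote in cultured rodent kidneys, had 6 of 12 on the positive side at that threshold and 0 on the negative side, beside the same 8.99% and 7.83%. The median was 0.48, or 0.29 with each oligo on its own. The 6 were Wnt4 at 1.84 ± 0.13, Etv4 at 1.54 ± 0.35, Spry1 at 0.79 ± 0.38, Six2 at 0.78 ± 0.096, Robo2 at 0.73 ± 0.11 and Gdnf at 0.68 ± 0.25. Of these Wnt4, Six2, Robo2 and Gdnf are known as genes of the nephrogenic mesenchyme or the early nephron. Etv4, named above as a bud tip gene, met the threshold as well. Ret, Wnt11 and Etv5, also bud tip genes, did not, and stood at -0.19 ± 0.26, 0.13 ± 0.29 and -0.46 ± 0.68. Kidney and metanephric mesenchyme markers were positive for 7 of 9 genes, beside 50.3% of all features, with a median of 0.29. They ranged from -0.57 for Osr1 to 1.84 for Wt1. Pax2, a transcription factor that angiotensin II is known to induce in cultured kidneys, had 0.16, 0.64 and 0.084.

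**Figure D3:**
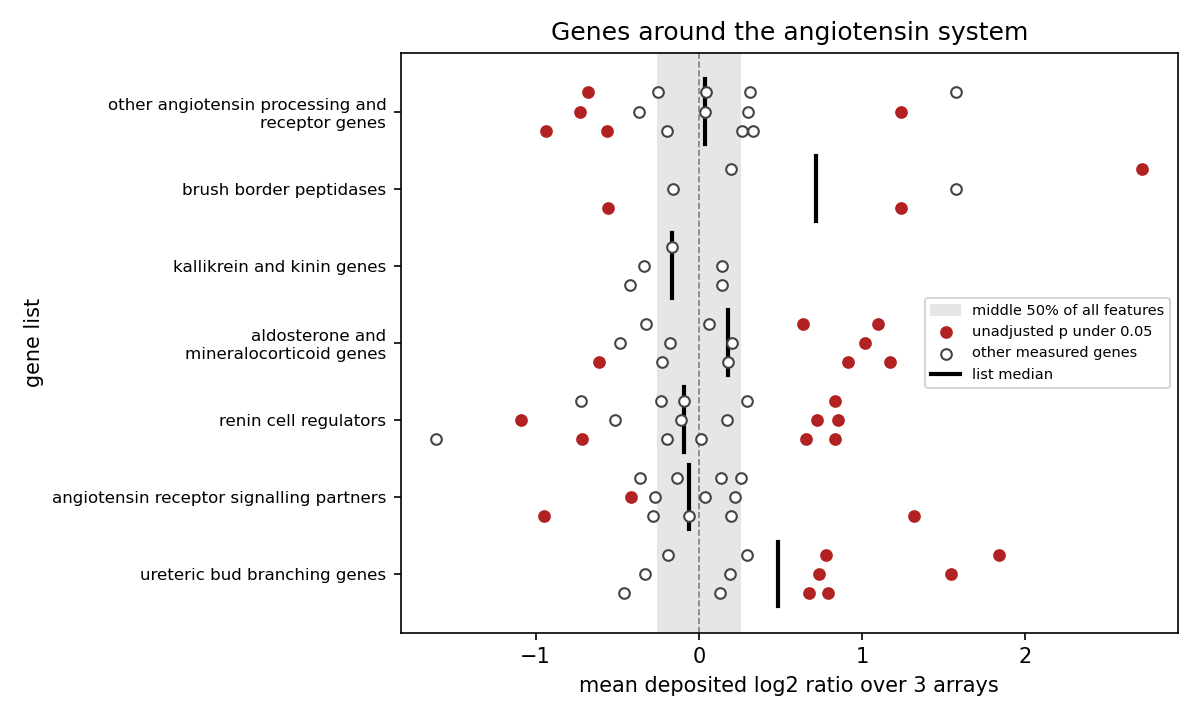
Mean deposited log2 ratio over 3 arrays (horizontal axis) of each measured gene in 7 lists around the angiotensin system (rows; height within a row has no meaning), with the list median as a black line and the middle 50% of all features shaded. Filled points had a limma unadjusted p under 0.05, and the medians run from -0.16 for kallikrein and kinin genes to 0.72 for brush border peptidases (0.33 without array 3).

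Counted once each, 79 genes of the 7 lists were measured. At an unadjusted p under 0.05 there were 19 positive and 10 negative genes by limma, together 36.7% of them, beside 16.8% of all features, and their median was 0.042. The lists were chosen with earlier results of these arrays known, so that share is given as a description. None of the 79 passed when adjusted over all features.

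**Figure D4:**
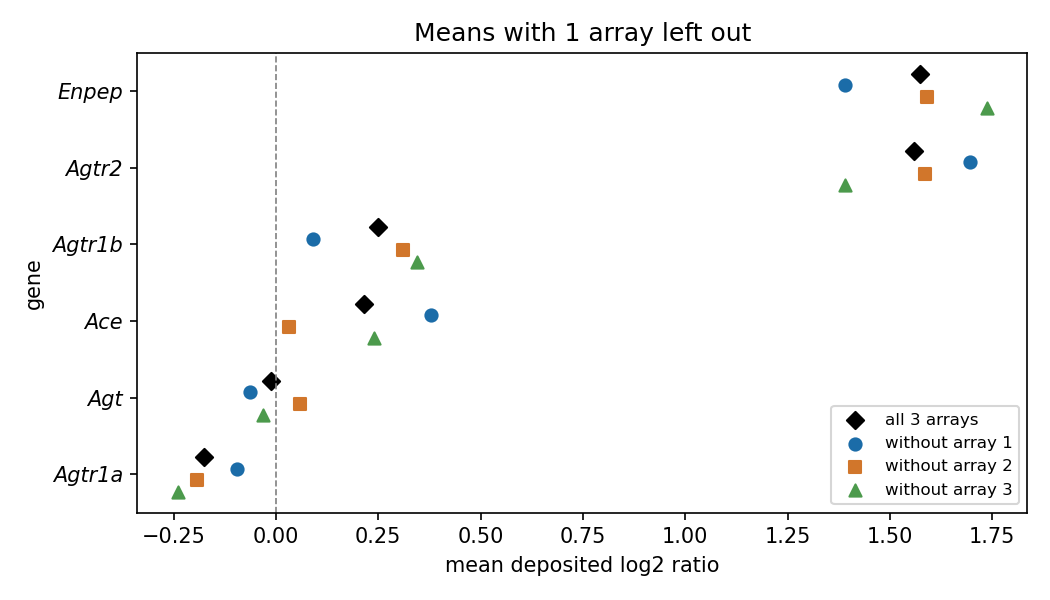
Mean deposited log2 ratio (horizontal axis) of each renin and angiotensin system gene (rows) over all 3 arrays and with each array left out in turn (symbols). Enpep and Agtr2 stay between 1.39 and 1.74, while Agt lies at 0.059 without array 2 and at -0.062 without array 1.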

How the data were processed

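The data were 3 2-colour arrays of mouse 13.5 dpc kidney with 10.5 dpc metanephric mesenchyme. Per the labels, images were read with ImaGene 5.5, print-tip loess and a normalization between arrays were run in R, and a lowess curve over 20% of the data adjusted the control value, with values under 10 set to 10. The deposited values are log2 ratios of channel signals. Base 2 was inferred: raised to it, 99.7% to 99.8% of an array's values give a number with 3 decimals, at a tolerance of 0.01 in the last. The numerator, the dyes and whether a swapped array was turned are not given in the sources used here; all arrays correlated above 0, and their signs were kept. Background and saturation were not examined, for want of spot intensities, and loess hides a shift common to most genes. Amplified RNA can distort a transcript's ratio.

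Of 21821 library oligos, 16658 had 1 symbol, 137 several and 5026 none listed; 881 control spots were left out. A value on all 3 arrays was required, oligos of a symbol were averaged, and limma 3.58.1 (R 4.3.3; intercept only, eBayes, two-sided) set the mean of each feature against 0; p-values were adjusted by Benjamini-Hochberg over 19635 features, with 0.05 as the threshold. Errors are SDs over 3 arrays, whose number limits the precision, and intervals are limma's at 95%. The fit was tested on simulated data with independent values and the same spread on all 3 arrays. That test did not cover arrays of uneven spread. Members and lists were chosen with earlier results of these data known. Genes were named by rule: every measured member, the 3 nearest genes to each by Euclidean distance, and from each of the 7 pathway lists the genes at an unadjusted p under 0.05, or else the 2 with the largest mean in size. Marker lists were described by counts, median and range, with the genes at their ends named. Atp6ap2, Mas1, Agtrap, Anpep, Scnn1a, Rbpj, Pax2, Ret, Wnt11, Etv5, Mep1a, Mep1b and Nr1h3 were named beside them after their values were seen. Red cell markers, set beside no member, were positive for 0 of 6 measured genes, beside 50.3% of all features. Their median was -0.75, with a range from -3.95 for Hbb-bh1 to -0.062 for Hbb-y. The alternatives were 1 array left out, other handling of oligos, scaling, incomplete and floored oligos, and other variance estimates.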

Additional observations from a re-analysis of the deposited data

How the results depend on the processing

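Under the 13 alternatives none of the 6 genes passed the adjusted threshold in limma, and Enpep and Agtr2 were the 2 at an unadjusted p under 0.05 in each. Their adjusted p ran from 0.0714 with array weights to 0.479 and 0.478 without array 1. Agt changed sign without array 2, and its mean with 1 array left out ran from -0.062 to 0.059; the other 5 genes kept their sign. The count of features past the adjusted threshold was 1, and it was 0 with scale normalization between arrays, in the ordinary test and with floored oligos left out, where the 1 feature itself is removed. At an unadjusted p under 0.05 these settings gave 3359, 2728 and 3307 features. With 1 array left out the count was 0 each time, with 1678 to 3913 features at an unadjusted p under 0.05. Of the 5 steps in the order of the genes, from 3 (without array 1) to 5 were kept with 1 array left out. The count of list genes at an unadjusted p under 0.05, 29 in all, ran from 19 (without array 1) to 28 there. Of 91 list medians recomputed, 87 moved by less than the spread between arrays, which is wide for lists whose arrays disagree. The 87 include those of the ordinary and robust tests, which change the variance estimate alone and cannot move a median. Taking the median of a symbol's oligos, admitting incomplete oligos and leaving out floored ones also left every list median unchanged. Among these 87 the brush border median of 0.72 was 0.33 without array 3 and 0.23 with each oligo on its own, the renin regulator median of -0.090 was 0.12 without array 1, and the aldosterone median of 0.18 was 0.044 without array 3. For values that moved the cause was not tested beyond what is stated. Each ratio already pairs the tissues on 1 array, and with 1 group there was no further block to fit. Signal over background was not examined.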

Other observations

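Array 3 stood apart for several brush border peptidases. Anpep had 4.13 there against 0.45 and 0.15 on arrays 1 and 2, and Mep1b, a meprin subunit measured by 2 oligos, had 1.47 against -1.02 and -0.92. Mep1a, the other meprin subunit, had -0.15 on array 3 against 0.16 and 0.58, and Enpep was lowest on array 3. Nr1h3, the liver X receptor listed among renin regulators, had -3.65 on array 3 against -0.72 and -0.46. With array weights in limma, array 3 had a weight of 0.494, beside 1.23 for array 1 and 1.65 for array 2. The part of array 3 in these values was not tested further.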
